A study of Homo sapiens with 6 samples.

Results

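Antisense RNA genes are annotated transcripts that lie on the strand opposite another gene. The set described here held every gene with the biotype antisense whose mean over the 6 libraries reached 0.2 FPKM (counts per 1000 exonic bases and 1000000 reads, times a factor close to 1 in each library). It comprised 1554 of the 5583 antisense genes and of the 58735 genes in the tables. The cells were MDA-MB-231, an established triple-negative breast cancer line of mesenchymal character. The 3 Vector libraries carry DMSO as their treatment label, and the 3 CB1 libraries, titled CB, carry CB1, the cannabinoid receptor encoded by CNR1. The methods describe stable overexpression of CB1 by lentiviral transduction with a pCDH plasmid. The comparison asked which transcripts differed in cells that carry more of the receptor. No label says that the libraries of a group came from separate transductions or cultures. The p-values therefore measure only the spread between these libraries, which may be technical.

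Antisense transcripts can act on the chromatin of the gene they overlap, pair with its mRNA, or merely be the by-product of a promoter that fires in both directions. Many are kept in the nucleus, are present at a few copies per cell and are removed by the RNA exosome. A number of them have been described in carcinoma, such as AFAP1-AS1, ZEB1-AS1 and TMPO-AS1. The arrangement with the coding gene on the other strand differs between loci. The starts overlap in a head-to-head pair, the ends overlap in a tail-to-tail pair, and an embedded antisense gene lies wholly inside the coding gene.

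The starts of 5 antisense genes and of some coding neighbours are shown because these loci illustrate the patterns described below: ZBTB11-AS1 and ZBTB11 went opposite ways, TMPO-AS1 rose while TMPO was not called, NR2F1-AS1 and NR2F1 fell together, and CEBPA-DT and MAN1B1-DT start beside a coding gene that they do not overlap. Each line is a window of 300 bases in GRCh38.p14 from RefSeq, 250 before and 50 after the start, read 5′ to 3′ on the gene's own strand, with the CG dinucleotides in capitals. RefSeq windows matched 292 members by symbol, and where a gene had several windows the one nearest its GENCODE start was taken.
ZBTB11-AS1: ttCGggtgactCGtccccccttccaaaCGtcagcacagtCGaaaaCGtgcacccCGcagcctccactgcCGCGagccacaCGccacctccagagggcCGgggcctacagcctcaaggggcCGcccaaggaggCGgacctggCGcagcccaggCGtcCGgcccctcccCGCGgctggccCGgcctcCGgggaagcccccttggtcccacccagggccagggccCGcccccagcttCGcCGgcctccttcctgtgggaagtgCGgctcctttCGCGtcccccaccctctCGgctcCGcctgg
ZBTB11: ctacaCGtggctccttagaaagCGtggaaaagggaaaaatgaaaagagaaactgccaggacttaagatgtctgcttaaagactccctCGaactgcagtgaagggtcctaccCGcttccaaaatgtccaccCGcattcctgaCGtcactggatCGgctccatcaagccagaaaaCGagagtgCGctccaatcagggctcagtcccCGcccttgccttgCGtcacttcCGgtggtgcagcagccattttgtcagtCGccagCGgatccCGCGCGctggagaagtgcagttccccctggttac
TMPO-AS1: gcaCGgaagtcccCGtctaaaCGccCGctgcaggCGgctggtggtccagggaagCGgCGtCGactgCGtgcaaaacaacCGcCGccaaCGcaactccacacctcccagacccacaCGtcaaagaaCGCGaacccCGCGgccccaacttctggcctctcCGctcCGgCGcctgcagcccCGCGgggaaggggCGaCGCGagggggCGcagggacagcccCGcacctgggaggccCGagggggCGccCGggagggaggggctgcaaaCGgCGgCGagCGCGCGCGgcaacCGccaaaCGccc
TMPO: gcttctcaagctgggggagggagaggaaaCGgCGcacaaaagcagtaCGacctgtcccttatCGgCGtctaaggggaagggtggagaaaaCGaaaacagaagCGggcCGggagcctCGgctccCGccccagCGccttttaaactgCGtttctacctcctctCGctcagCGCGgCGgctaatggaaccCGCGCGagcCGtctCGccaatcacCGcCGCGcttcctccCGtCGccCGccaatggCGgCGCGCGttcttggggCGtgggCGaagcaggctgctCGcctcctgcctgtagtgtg
NR2F1-AS1: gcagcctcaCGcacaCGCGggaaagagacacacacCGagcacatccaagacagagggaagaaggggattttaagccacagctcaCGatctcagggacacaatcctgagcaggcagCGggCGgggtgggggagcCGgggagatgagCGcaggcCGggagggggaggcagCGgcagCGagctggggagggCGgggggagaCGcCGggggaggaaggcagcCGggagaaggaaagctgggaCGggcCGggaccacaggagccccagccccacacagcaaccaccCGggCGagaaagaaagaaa
NR2F1: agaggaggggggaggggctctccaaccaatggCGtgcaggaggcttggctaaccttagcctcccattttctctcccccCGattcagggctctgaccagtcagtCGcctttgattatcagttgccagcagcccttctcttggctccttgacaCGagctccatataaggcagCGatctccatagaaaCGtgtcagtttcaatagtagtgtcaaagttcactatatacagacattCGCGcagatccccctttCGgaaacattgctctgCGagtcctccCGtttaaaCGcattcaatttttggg
CEBPA-DT: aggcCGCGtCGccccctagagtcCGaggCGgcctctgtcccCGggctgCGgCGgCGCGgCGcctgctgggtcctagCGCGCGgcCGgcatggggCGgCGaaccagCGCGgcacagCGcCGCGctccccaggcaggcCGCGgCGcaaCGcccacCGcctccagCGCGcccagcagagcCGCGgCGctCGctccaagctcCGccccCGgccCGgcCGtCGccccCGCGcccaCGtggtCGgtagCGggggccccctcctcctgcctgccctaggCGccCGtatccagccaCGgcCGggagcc
MAN1B1-DT: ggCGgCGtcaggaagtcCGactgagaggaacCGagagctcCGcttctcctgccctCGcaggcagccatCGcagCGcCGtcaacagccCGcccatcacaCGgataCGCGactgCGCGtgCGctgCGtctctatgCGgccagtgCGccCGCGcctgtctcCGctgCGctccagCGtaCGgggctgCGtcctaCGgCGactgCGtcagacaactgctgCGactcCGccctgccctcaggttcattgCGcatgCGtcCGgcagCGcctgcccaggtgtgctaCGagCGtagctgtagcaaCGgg

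These windows lie at chr3:101676180-101676479 (plus strand) for ZBTB11-AS1, chr3:101677083-101677382 (minus) for ZBTB11, chr12:98516177-98516476 (minus) for TMPO-AS1 and chr12:98515323-98515622 (plus) for TMPO. Those of NR2F1-AS1 and NR2F1 lie at chr5:93585540-93585839 (minus) and chr5:93582972-93583271 (plus), that of CEBPA-DT at chr19:33302571-33302870 (plus) and that of MAN1B1-DT at chr9:137086768-137087067 (minus). The starts of ZBTB11-AS1 and ZBTB11 lay 702 bases apart, those of TMPO-AS1 and TMPO 653, and those of NR2F1-AS1 and NR2F1 2367. In each of these pairs the transcripts ran toward each other and overlapped. CEBPA-DT and CEBPA instead ran apart from starts 287 bases from each other, and 214 bases of their windows were the same DNA, while MAN1B1-DT and MAN1B1 shared 267 bases. The RefSeq starts differed from the GENCODE starts by 0 to 363 bases in the genes shown. CG dinucleotides numbered 27 in the ZBTB11-AS1 window, 39 in that of TMPO-AS1, 20 in that of NR2F1-AS1, 47 in that of CEBPA-DT and 38 in that of MAN1B1-DT. The median was 21 over 334 windows of members, 25 over 14802 windows of coding genes tested and 14 over all 35116 windows. On either strand, a cAMP response element (TGACGTCA) began at position -112 of ZBTB11 and an E-box (CACGTG) at -247 of ZBTB11 and at -22 of CEBPA-DT. The element TGACGTCA stood in 1.85% of all windows and CACGTG in 7.26%. The AP-1 letters TGANTCA (7.71% of all windows) and the TATA letters TATAAA (11.5%) were in none of the 8 windows shown.

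Most members were short, sparse and unnamed. Their median exonic length was 776.5 bases against 5009 for coding genes tested, the median member had 2 exon blocks, and 1135 of the 1554 carried only a clone name. The median level was 0.61 FPKM, far below the median of 6.11 FPKM of coding genes, and corresponded to a mean of 10.2 counts per library against 214.5 over all genes tested. Just inside the minimum stood SEPT4-AS1 (0.2004 FPKM), AC017006.2 (0.2010) and AP002340.1 (0.2012), and just outside it EPN2-AS1 (0.1995), AC008149.1 (0.1990) and AL390961.2 (0.1987). Only 19 members reached 10 FPKM. The 6 most abundant were AC099850.3 at 68.4 FPKM, FGD5-AS1 at 32.9, AC005288.1 at 24.2, AL513165.1 at 20.9, AL355312.3 at 19.9 and AC027307.2 at 18.0. FGD5-AS1, a spliced RNA with 9 exon blocks, had 2847, 2950 and 2976 counts in Vector and 2706, 3000 and 3208 in CB1. These ranges overlapped, and the log2 difference was 0.00 ± 0.07 (SE).

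A coding gene on the other strand overlapped 1354 members, by 1 base or more, and 1230 of these members had a partner that was itself tested, while the partner of the other 124 was too low. Of the overlapped members, 696 were embedded in the partner, 311 lay head-to-head, 295 tail-to-tail and 52 enclosed it. A further 96 members overlapped no coding gene but started within 1000 bases of a coding gene that runs the other way, and 104 had neither. Partners stood far above the members. The median member reached 9.3% of the FPKM of its partner, with quartiles of 3.3% and 25.8%, and 111 of the 1230 exceeded it. Embedded members had a median of 8.2% of the partner level, head-to-head members 9.96%, tail-to-tail members 10.6% and enclosing members 42.2%.

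**Figure D1:**
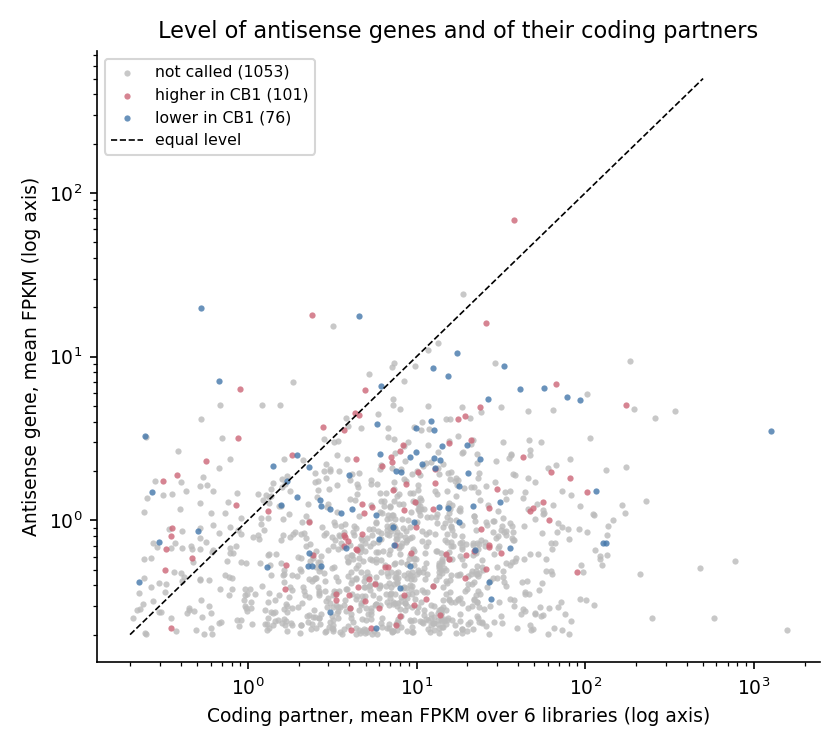
Mean FPKM of each of the 1230 antisense genes (vertical, log axis) against that of its overlapping coding partner (horizontal, log axis), 1 point per pair, coloured by the call of the antisense gene. Most points lie below the dashed line of equal level, and 111 lie above it.

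The sequencing kit named in the methods does not mark strand, and no source used here gives the strand setting of the counting. Reads from an antisense gene and from its partner cannot then be told apart where their transcripts cover the same bases. Of the 468 antisense genes with over 80% of their exonic bases inside coding exons of the other strand, 16 (3.42%) were members and the median level was 0 FPKM, whereas 660 of the 2582 (25.6%) with no such overlap were members. The share was 35.8% of the 2160 genes with over 0 to 50% overlap and 27.9% of the 373 with over 50 to 80%, so it was low only above 80%. Among members the median exonic overlap with coding exons was 5.4%, and 120 members exceeded 50%. This measure holds exons only and does not cover unspliced reads from introns of the partner, whose part was not tested. The exonic overlap is given beside many of the pairs described below, and a pair without a value there is not one without overlap. Among the latter, the partner covered 32.2% of VIM-AS1, 21.2% of TMPO-AS1, 18.8% of BDNF-AS and 15.5% of RGMB-AS1. It covered 11.4% of HHIP-AS1, 10.1% of H1FX-AS1 and 8.5% of WAC-AS1.

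Against Vector, 237 of the 1554 members changed in the CB1 cells, 136 of them upward and 101 downward, while 1317 did not pass the test, at an adjusted p under 0.05 (edgeR quasi-likelihood test, all 19065 genes tested together). This was 15.3% of the members, where the background over all genes tested was 42.7%. The higher calls made up 8.75% of members against a background of 20.8%, and the lower calls 6.5% against 21.9%. The members were shallow, and among the 345 with a mean of at least 30 counts 120 (34.8%) were called, 64 higher and 56 lower. Of all genes tested with at least 30 counts, 56.1% were called, but depth above this floor was not matched to the members. The CB1 and Vector values did not overlap for 441 members (28.4%), against 52.7% of all genes tested. The median log2 difference was 0.11 over the members and 0.01 over all genes tested. A total of 178 members reached the minimum only through the CB1 group and 90 only through the Vector group, so the direction of these was partly fixed by the choice. The 1286 members at the minimum in both groups held 109 higher and 90 lower calls. Of the 237 calls, 126 exceeded a 2-fold difference, 78 higher and 48 lower. Leaving out Vector replicate 1, 2 or 3 gave 158, 153 or 161 calls. More genes of any kind had a count in the CB1 libraries (25869 to 27162) than in the Vector libraries (24007 to 24405), and 10 members had no Vector count against 2 with no CB1 count. The part of this in the calls was not tested.

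Rises and falls were ranked among called members whose groups did not overlap and whose higher group had a mean of at least 30 counts. The largest rises among symbol-named members ranked in this way were those of AFAP1-AS1, POLH-AS1, ZBTB11-AS1, VPS9D1-AS1 and FOXN3-AS1. AFAP1-AS1, an RNA described as raised in several carcinomas, held 29, 18 and 21 counts in Vector and 95, 151 and 134 in CB1. All CB1 libraries stood above all Vector libraries, at 7.08 ± 1.36 against 1.29 ± 0.33 CPM (counts per 1000000 after TMM scaling, SD, n = 3), a log2 difference of 2.45 ± 0.22 (SE, adjusted p = 1.2e-06). With 0.192 FPKM in Vector and 1.05 in CB1, AFAP1-AS1 reached the minimum only through the CB1 group, which partly fixed its direction. The gene spans chr4:7754090-7778928 on the plus strand and overlaps the end of AFAP1, which encodes an actin filament-associated protein. AFAP1 itself had 2707, 2758 and 2726 counts against 1913, 2961 and 2764, and was not called (log2 difference -0.13, adjusted p = 0.37). Exons of AFAP1 cover 7.7% of the exonic bases of AFAP1-AS1.

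VPS9D1-AS1 was the most abundant of the 5, with 96, 87 and 98 counts in Vector and 301, 298 and 263 in CB1. Its level rose from 3.08 ± 0.22 to 9.33 ± 0.91 FPKM (SD, n = 3), a log2 difference of 1.60 ± 0.13 (SE, adjusted p = 3.7e-07). It lies inside VPS9D1 at chr16:89711856-89718165, plus strand, with 29.5% of its exonic bases in exons of that gene. VPS9D1 showed 314, 319 and 313 against 260, 295 and 265 counts, which did not pass the test (adjusted p = 0.070). The groups of VPS9D1-AS1 lay far apart, with every CB1 library above every Vector library.

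POLH-AS1, embedded in the gene for DNA polymerase eta, had 19, 17 and 15 counts against 70, 49 and 44 (log2 difference 1.65 ± 0.28, adjusted p = 2.1e-04), with no exon shared. POLH rose as well, by 0.56 on the log2 scale. FOXN3-AS1, embedded in the forkhead factor gene FOXN3 and also without shared exons, had 23, 29 and 26 against 74, 75 and 75 counts (1.498 ± 0.202, adjusted p = 3.2e-05). FOXN3 was not called, with a log2 difference of 0.04. The FOXN3-AS1 libraries were tight within each group and well apart between them.

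The other 7 rises of this set ranged from 0.94 to 1.25 on the log2 scale. DLEU2, the host transcript of the microRNAs miR-15a and miR-16-1, had 62, 42 and 55 against 131, 130 and 101 counts (1.17 ± 0.19, adjusted p = 1.6e-04) and encloses TRIM13, which was not called. PINK1-AS, which overlaps the gene of the mitochondrial kinase PINK1, had 65, 57 and 52 against 125, 97 and 145 counts (1.06 ± 0.19), and PINK1 rose by 0.59. Exons of PINK1 cover 42.9% of PINK1-AS, so the counts of that pair are poorly separable. BDNF-AS, described as a repressor of the neurotrophin gene BDNF, had 21, 13 and 13 against 25, 52 and 29 counts (1.14 ± 0.34, adjusted p = 0.014), and BDNF was not called (log2 difference -0.01). The BDNF-AS call was lost without CB1 replicate 2 (adjusted p = 0.104), Vector replicate 2 (0.0647) or Vector replicate 3 (0.0556). SLFNL1-AS1, MAN1B1-DT, ATP2A1-AS1 and CCDC183-AS1 completed the set. CCDC183-AS1 lost its call without CB1 replicate 2 (adjusted p = 0.136), Vector replicate 1 (0.0842) or Vector replicate 2 (0.101).

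Clone-named members were ranked in the same way, so that members with fewer counts were left out. The largest rise was that of AC026740.1 inside TPPP (14, 11 and 8 against 60, 27 and 36 counts, log2 difference 1.88 ± 0.38). AC124798.1, which has no coding partner (1.56 ± 0.36), AC121761.1 inside GLIPR1 (1.38 ± 0.32) and AL137186.2 beside FBH1 (1.34 ± 0.30) followed. TPPP, a microtubule-binding protein gene, rose with AC026740.1 by 0.85, while GLIPR1 and FBH1 were not called. AC121761.1 was uneven in the CB1 group, at 40, 50 and 99 counts.

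The largest falls among symbol-named members, ranked with the same conditions as the rises, were those of NALT1, FEZF1-AS1, HHIP-AS1, TBILA and RGMB-AS1. FEZF1-AS1, an RNA raised in colorectal and gastric carcinoma, had 196, 207 and 216 counts in Vector and 92, 80 and 81 in CB1, a change from 3.59 ± 0.18 to 1.45 ± 0.17 FPKM (SD, n = 3) and a log2 difference of -1.31 ± 0.14 (SE, adjusted p = 3.3e-06). It spans chr7:122303658-122310077 on the plus strand inside the annotated span of the transcription factor gene FEZF1 and shares 18.4% of its exonic bases with it. FEZF1 had 89, 111 and 108 against 87, 59 and 78 counts (log2 difference -0.47, adjusted p = 0.0499), a call lost without any single library except CB1 replicate 1, with adjusted p from 0.0507 without Vector replicate 1 to 0.194 without CB1 replicate 2, and also under 7 alternative settings. The antisense fall was the larger one, and the ratio of the 2 RNAs fell by 0.82 ± 0.18 on the log2 scale (adjusted p = 0.0076).

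HHIP-AS1, head-to-head with the hedgehog inhibitor gene HHIP, had 127, 113 and 131 against 54, 57 and 51 counts (log2 difference -1.21 ± 0.16, adjusted p = 2.4e-05). HHIP was barely present, at 41 to 63 counts in every library, and was not called. NALT1, known as a NOTCH1-associated RNA in T-cell leukaemia, had 44, 41 and 29 against 16, 14 and 14 counts (-1.38 ± 0.29, adjusted p = 0.0013). It does not overlap NOTCH1 but starts 426 bases from it, and NOTCH1 itself missed the threshold (log2 difference -0.26, adjusted p = 0.060). RGMB-AS1 stood at 498, 483 and 406 against 152, 315 and 241 counts (-0.997 ± 0.168, adjusted p = 2.2e-04), the CB1 replicate 1 value being the lowest, and RGMB, a bone morphogenetic protein co-receptor gene, fell by 0.28.

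The other falls of this ranked set ranged from 0.70 to 1.02 below 0 on the log2 scale. PAXIP1-AS2 had 187, 191 and 179 against 95, 108 and 96 counts (-0.92 ± 0.13, adjusted p = 3.8e-05), with PAXIP1 not called. C1RL-AS1 had 237, 228 and 230 against 66, 184 and 169 counts (-0.76 ± 0.23), CB1 replicate 1 being far below the other CB1 libraries, and the complement protease-like gene C1RL fell by 0.46. SLCO4A1-AS1 fell by 0.94 ± 0.27 beside a fall of 1.37 ± 0.12 for the transporter gene SLCO4A1 that holds it. CASC8, STARD4-AS1, GNG12-AS1, STAM-AS1 and TBILA, the last an RNA induced by transforming growth factor beta, made up the rest. The calls of 4 falls depended on single libraries: SLCO4A1-AS1 without Vector replicate 3 (adjusted p = 0.0605), TBILA without CB1 replicate 3, Vector replicate 1 or 3 (0.0507 to 0.059), GNG12-AS1 without CB1 replicate 2, Vector replicate 1 or 3 (0.0616 to 0.0736), and STAM-AS1 without CB1 replicate 2 or 3, Vector replicate 2 or 3 (0.0825 to 0.161).

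**Figure D2:**
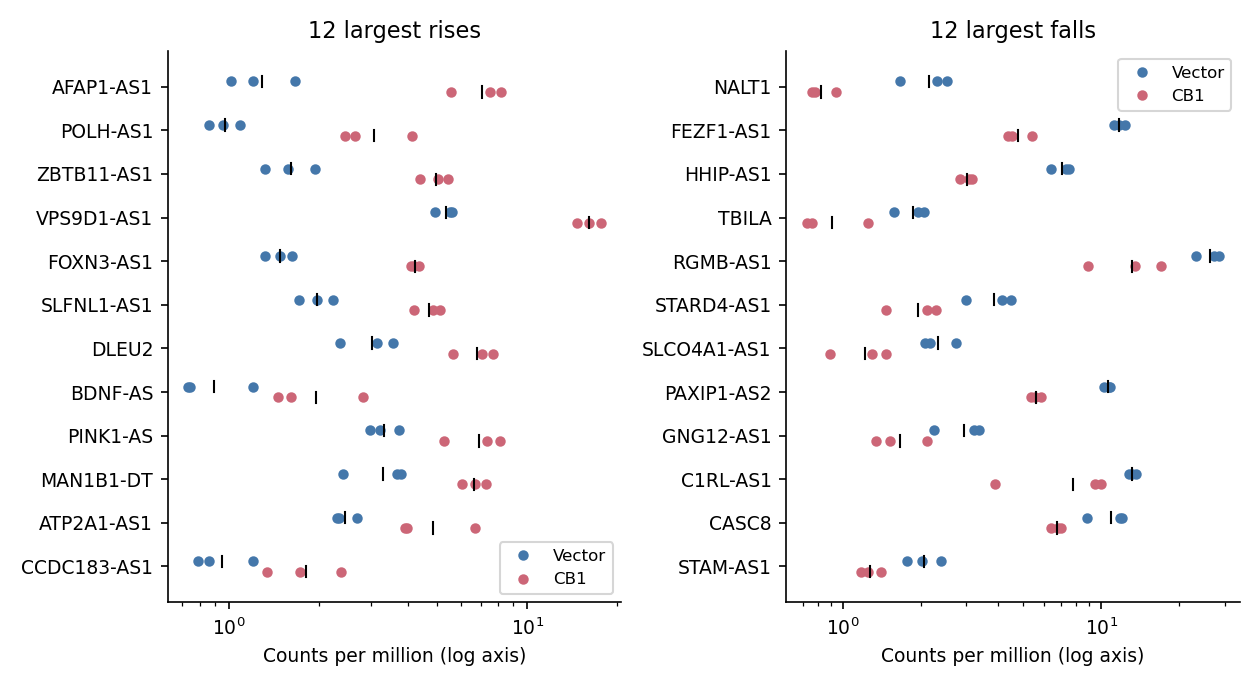
CPM (log axis, TMM) of the 12 symbol-named members with the largest ranked rises (left) and falls (right). Each has a mean of at least 30 counts in the higher group, with 1 point per library and a black bar at each group mean. In all 24 genes the CB1 and Vector points do not overlap, as the choice required, and CB1 replicate 1 lies apart in C1RL-AS1.

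Falls of clone-named members were ranked with the same conditions, so that members with fewer counts were left out. The largest ran from 1.55 to 1.85 on the log2 scale. They were those of AC090673.2 inside HMGA2 (52, 43 and 41 against 9, 13 and 16 counts), AC067930.5 beside NAPRT (78, 89 and 75 against 20, 20 and 28), AP006284.1 inside LMNTD2 (35, 41 and 47 against 6, 9 and 21) and AC007686.3 at the start of IRF2BPL (29, 32 and 29 against 9, 11 and 11). AC007686.3 reached the minimum only through the Vector group (0.496 against 0.168 FPKM). Exons of NAPRT, the nicotinate phosphoribosyltransferase gene, cover 72.9% of AC067930.5, yet NAPRT was not called (log2 difference -0.07). LMNTD2 and IRF2BPL fell as well, by 0.70 and 0.37, and their exons cover 45.4% of AP006284.1 and 17.6% of AC007686.3. Among the most abundant members, AC099850.3 rose with its host PRR11, a gene linked with cell cycle progression, at 242, 250 and 283 against 453, 539 and 543 counts (0.96 ± 0.10, PRR11 0.71 ± 0.07). AC027307.2 rose with APC2 (0.77 and 0.82). Exons of PRR11 cover 30.2% of AC099850.3 and exons of APC2 cover 42.9% of AC027307.2, so the counts of these pairs are poorly separable. In neither pair was the ratio of antisense to partner counts called. AL513165.1, without a partner, rose by 1.09 ± 0.15, AL355312.3 fell by 1.02 ± 0.15, and AC005288.1 was not called.

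Calls in both directions occurred in every arrangement. They numbered 47 higher and 34 lower of the 696 embedded members, 32 and 32 of the 311 head-to-head, 30 and 17 of the 295 tail-to-tail and 8 and 2 of the 52 enclosing members. With a mean of at least 30 counts, 39.6% of 91 embedded, 33.3% of 102 head-to-head, 34.9% of 83 tail-to-tail and 21.4% of 28 enclosing members were called. These shares were not tested against each other. All lay below the 56.1% of all genes with at least 30 counts, whose depth above this floor was not matched to the members.

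The change of a member and that of its partner were weakly related. Over the 1230 pairs the Spearman coefficient of the log2 differences was 0.17 and Pearson's r 0.15, and 55.1% of pairs shared the sign. Over the 275 pairs in which the member had at least 30 counts it was 0.32 (Pearson 0.30, 61.1% sharing the sign). Overlapping pairs of 2 coding genes, 1697 in number, gave 0.33, 0.27 and 62.2%. The points share the same 6 libraries, 1127 partners serve the 1230 members, so these values are descriptions. By arrangement, at 30 counts or more, the coefficient was 0.49 in 76 tail-to-tail pairs, 0.39 in 82 embedded pairs, 0.27 in 18 enclosing pairs and 0.16 in 99 head-to-head pairs. Where the exons of the pair did not overlap it was 0.11 over all 449 such pairs and 0.34 over the 60 with at least 30 counts. The shares with the same sign there were 52.8% and 53.3%. Both genes were called in 109 pairs. In 38 both rose, in 44 both fell, in 17 the antisense gene rose while the partner fell and in 10 the reverse occurred.

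**Figure D3:**
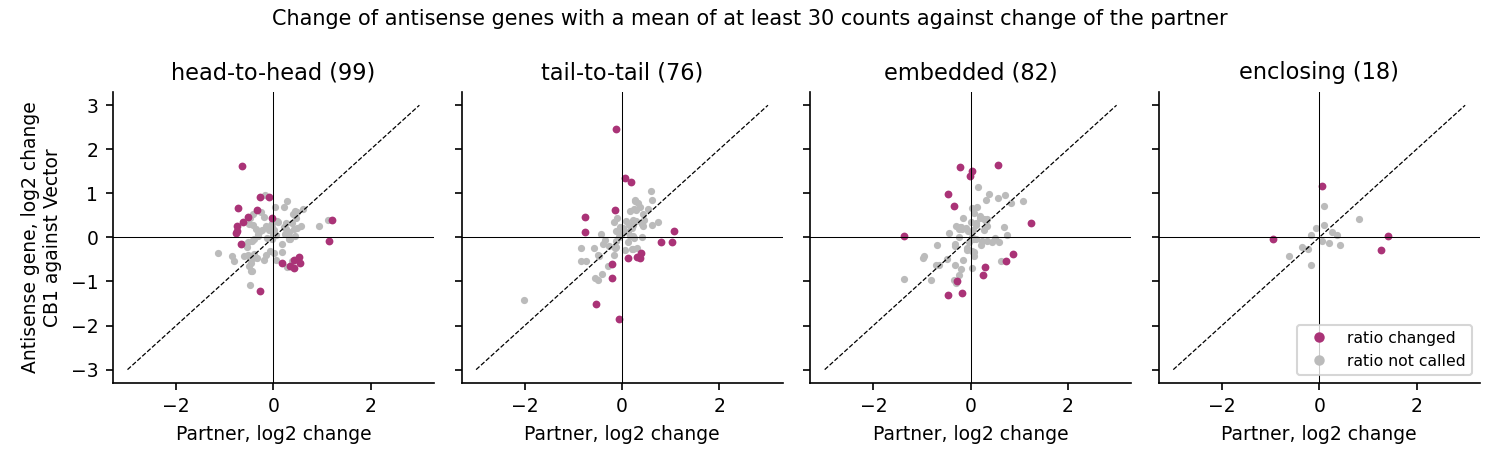
Log2 difference between CB1 and Vector of antisense genes with a mean of at least 30 counts (vertical) against that of their coding partner (horizontal), 1 point per pair in 4 panels by arrangement, with the number of pairs in brackets. Coloured points are pairs whose ratio changed, and the dashed line marks equal change; the coefficient is highest in the tail-to-tail pairs (0.49) and lowest in the head-to-head pairs (0.16).

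A direct test of the ratio of antisense to partner counts within each library found a change in 113 of the 1230 pairs (9.19%), 65 upward and 48 downward, against 19.7% of all 3911 opposite-strand pairs fitted (limma on the log2 ratio, adjusted p under 0.05). At 30 counts or more in the member it was 57 of 275 (20.7%), for which the 19.7% over pairs of any depth is not a matched background. Leaving out Vector replicate 1, 2 or 3 reduced the 113 to 54, 51 or 54, and leaving out CB1 replicate 2 to 69. In 40 of the 113 pairs the partner alone had been called, in 32 the antisense gene alone, in 38 both, 26 of them in opposite directions, and in 3 neither.

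ZBTB11-AS1 rose while ZBTB11 fell. The counts of ZBTB11-AS1 were 23, 28 and 34 in Vector and 93, 81 and 90 in CB1 (log2 difference 1.61 ± 0.21, adjusted p = 2.0e-05). ZBTB11, a zinc finger transcription factor gene, went from 841, 868 and 859 to 508, 549 and 616 (-0.64 ± 0.09, adjusted p = 3.4e-05). Within libraries the ratio of ZBTB11-AS1 to ZBTB11 rose by 2.26 ± 0.24 on the log2 scale (adjusted p = 1.1e-04). The genes overlap over 1021 bases at their starts, and ZBTB11 exons cover 32.5% of the exonic bases of ZBTB11-AS1. In neither gene did the CB1 and Vector values overlap.

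Of the 27 pairs called in opposite directions, 13 were embedded, 12 head-to-head and 2 tail-to-tail. The pairs at WAC, H1FX and NR2F2, described next, were picked from the head-to-head ones with their values in view. WAC-AS1 had 703, 733 and 640 against 1046, 896 and 962 counts (0.47 ± 0.10, adjusted p = 0.0011) while WAC, an adaptor of histone ubiquitination, fell by 0.53 ± 0.07. H1FX-AS1 fell, from 106, 111 and 103 to 68, 82 and 67 counts (-0.58 ± 0.15, adjusted p = 0.0062), while the linker histone gene H1FX rose by 0.55 ± 0.09. NR2F2-AS1 fell, from 56, 53 and 53 to 27, 37 and 41 counts (-0.65 ± 0.21, adjusted p = 0.024), and the nuclear receptor gene NR2F2 rose by 0.35 ± 0.07. The NR2F2-AS1 call was lost without any single library except CB1 replicate 3, with adjusted p from 0.0503 to 0.077, while its ratio to NR2F2 fell by 1.004 ± 0.233 (adjusted p = 0.011).

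NR2F1-AS1 and NR2F1, the paralogous locus, moved together. NR2F1-AS1, an RNA linked with dormancy of breast cancer cells, had 440, 412 and 374 against 314, 294 and 288 counts (-0.47 ± 0.10, adjusted p = 0.0017). NR2F1 had 836, 880 and 870 against 598, 666 and 614 (-0.48 ± 0.08, adjusted p = 1.8e-04). The ratio was not called (0.01 ± 0.14), and the exonic overlap was 2.05%. Every CB1 library lay below every Vector library in both genes.

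At the start of TMPO, the gene of the lamina-associated protein thymopoietin, TMPO-AS1 had 88, 101 and 102 against 195, 184 and 182 counts (0.93 ± 0.13, adjusted p = 5.5e-05). TMPO held 6333, 6765 and 6659 against 6034, 6380 and 6437 counts and was not called (-0.09 ± 0.07). The ratio rose by 1.01 ± 0.16 (adjusted p = 0.0014). TMPO-AS1 has been described with estrogen signalling in breast cancer cells. The receptor gene ESR1 had only 1 to 5 counts in any library here.

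HMGA2, an architectural chromatin protein gene on chromosome 12, holds 2 antisense genes in separate parts of its span, and they went opposite ways. AC090673.1 lies 27209 to 58036 bases from the HMGA2 start and had 93, 51 and 48 against 102, 127 and 156 counts (0.98 ± 0.23, adjusted p = 0.0030). AC090673.2 lies 110646 to 124348 bases from it and had 52, 43 and 41 against 9, 13 and 16 counts (-1.85 ± 0.29, adjusted p = 1.1e-04). HMGA2 itself fell from 3170, 3050 and 3004 to 1959, 2301 and 2493 counts (-0.47 ± 0.08). Relative to HMGA2, AC090673.1 rose by 1.5001 ± 0.244 and AC090673.2 fell by 1.37 ± 0.29. Exonic overlap with HMGA2 was 6.4% for the former and 0% for the latter. Of 92 partners with at least 2 members, only 3 had at least 2 called members, and HMGA2 was the 1 of these 3 whose members were called in both directions.

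**Figure D4:**
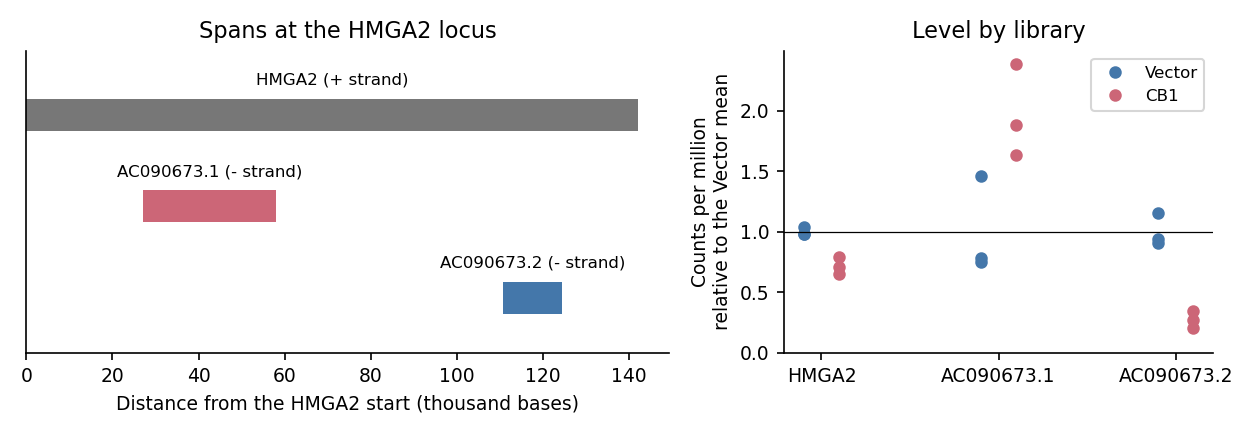
Left, spans of HMGA2 and of the 2 antisense genes inside it, as distance from the HMGA2 start in kb. Right, CPM of each library relative to the mean of the Vector libraries, 1 point per library; the CB1 points of AC090673.1 lie above 1, and those of HMGA2 and AC090673.2 below it.

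In several pairs whose ratio changed, the coding gene was the called one. AL357033.4, inside SLCO4A1, had 62, 75 and 55 against 75, 81 and 43 counts and was not called (0.03 ± 0.23), while SLCO4A1 fell from 295, 342 and 297 to 112, 133 and 121 counts. The ratio rose by 1.36 ± 0.26. PRKAR2A, a regulatory subunit gene of protein kinase A, rose by 1.14 ± 0.08, and PABPC4, a cytoplasmic poly(A)-binding protein gene, by 0.86 ± 0.07, where PRKAR2A-AS1 (34, 37 and 28 against 38, 17 and 39 counts) and AL365277.1 (36, 42 and 27 against 12, 34 and 36 counts) were not called. The respective ratios fell by 1.31 ± 0.37 and 1.36 ± 0.38. GPRC5D-AS1 was likewise not called (44, 49 and 33 against 15, 46 and 44), with a ratio 1.64 ± 0.31 lower beside GPRC5D at 6 to 8 counts in Vector and 13 to 20 in CB1. The GPRC5D call was lost without CB1 replicate 2 or 3 or Vector replicate 1 or 3 (adjusted p = 0.0586 to 0.0746). AC010197.1 at the start of the lactate dehydrogenase gene LDHB fell by 1.54 ± 0.31, and LDHB was not called. CB1 replicate 1 was the lowest library for GPRC5D-AS1 and AL365277.1.

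**Figure D5:**
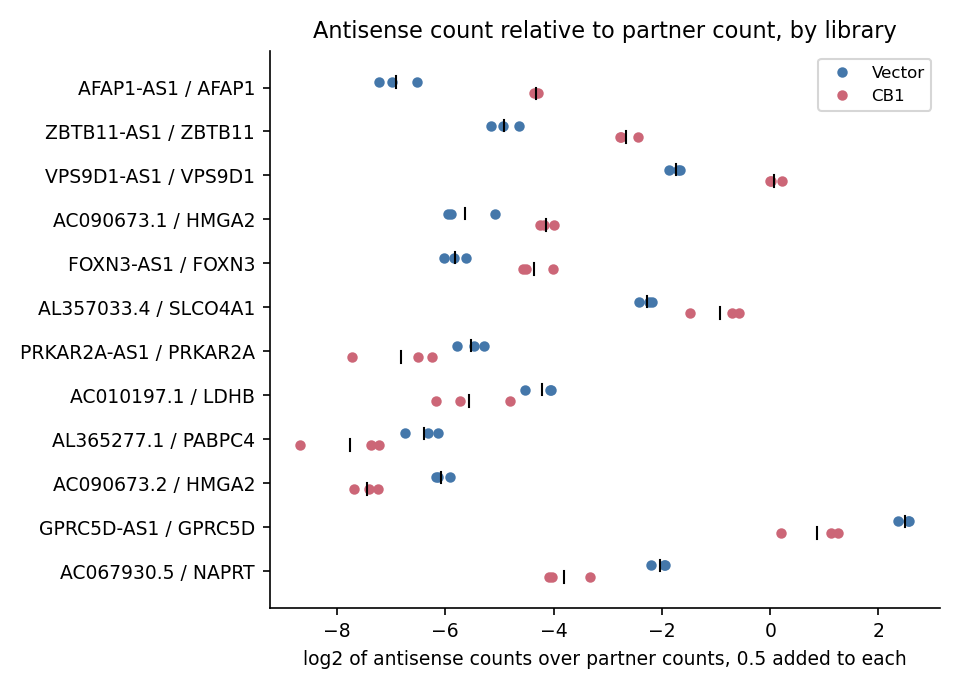
Log2 of antisense counts over partner counts, 0.5 added to each, by library for 6 pairs whose ratio rose most and 6 whose ratio fell most among those with a mean of at least 30 antisense counts in the higher group, with a black bar at each group mean. AFAP1-AS1 over AFAP1 rose most (by 2.58) and AC067930.5 over NAPRT fell most (by 1.78).

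Of 77 antisense RNAs described in cancer or gene regulation on a fixed list, 26 were members, 21 were antisense genes below the minimum, 26 had another biotype and 4 were not matched. Of the 26, 7 rose and 3 fell (38.5% called, where the background over all genes tested was 42.7%), with a median log2 difference of -0.02 against 0.01 over all genes tested. Of the 7 rises, AFAP1-AS1, HOTAIRM1 and HOXD-AS2 reached the minimum only through the CB1 group, which partly fixed their direction. Their Vector levels were 0.192, 0.026 and 0.081 FPKM. The list was assembled with earlier results of these data known and is no independent evidence of a direction. ZFAS1, a host of small nucleolar RNAs, had 472, 478 and 444 against 807, 773 and 678 counts (0.68 ± 0.10, adjusted p = 4.8e-05). PXN-AS1 rose by 0.60 ± 0.18 (adjusted p = 0.016), a call lost without Vector replicate 1 (adjusted p = 0.0788) or 3 (0.073), while PXN was not called. PSMA3-AS1, at the end of the proteasome gene PSMA3, fell from 1073, 946 and 986 to 670, 667 and 658 counts (-0.61 ± 0.09, adjusted p = 4.5e-05).

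ZEB1-AS1 starts beside ZEB1, a driver of the mesenchymal state, and had 167, 192 and 188 against 133, 133 and 150 counts (-0.41 ± 0.13, adjusted p = 0.015). ZEB1 fell as well, from 2379, 2525 and 2459 to 1096, 1431 and 1601 counts (-0.86 ± 0.10). The ZEB1-AS1 call was lost without CB1 replicate 2 (adjusted p = 0.0548), Vector replicate 2 (0.066) or Vector replicate 3 (0.0648), and the ratio was not called. VIM-AS1, head-to-head with the vimentin gene, had 146, 162 and 170 against 180, 156 and 159 counts and was not called, while VIM rose by 0.45 ± 0.09. ZNF503-AS2 (0.39 ± 0.20) was not called beside a rise of ZNF503 of 1.19 ± 0.11, and their ratio fell by 0.80 ± 0.24 (adjusted p = 0.039). NNT-AS1 had 440, 451 and 448 against 372, 396 and 398 counts, without overlap, and just missed the threshold (-0.22 ± 0.09, adjusted p = 0.052), while NNT, the nicotinamide nucleotide transhydrogenase gene, fell by 0.54 ± 0.09. SBF2-AS1, MCM3AP-AS1, LOXL1-AS1, ITGB2-AS1, SPRY4-AS1, EGFR-AS1, FOXP4-AS1 and SEMA3B-AS1 were not called either.

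The HOX clusters held 6 members, of which HOTAIRM1 and HOXD-AS2 rose. HOTAIRM1, HOXD-AS2, HOXC-AS1 and HOXB-AS2 stood at 0.026 to 0.114 FPKM in Vector and reached the minimum of 0.2 FPKM only through the CB1 group, which partly fixed their direction, so nothing is read from the 2 rises among 6 beside the 20.8% of all genes tested that were higher. HOTAIRM1, an RNA of the HOXA cluster known from myeloid differentiation, had 0, 0 and 2 counts in Vector and 15, 17 and 9 in CB1. With 2 against 41 counts the ratio of the groups was 20.2, and its 95% exact interval for counting error ran from 5.25 to 172. HOXD-AS2 had 5, 0 and 1 against 16, 8 and 16 counts, a ratio of 6.57 (2.77 to 19.0). HOXC-AS1 (0, 0 and 3 against 1, 6 and 7), HOXB-AS2 (4, 0 and 1 against 2, 13 and 7) and HOXB-AS3 (7, 11 and 7 against 13, 18 and 14) did not pass the test. HAGLR, by far the most abundant of the 6 at 4.53 FPKM, had 433, 420 and 344 against 346, 462 and 425 counts, and its groups overlapped. Markers of an embryonic kidney line were also higher in the CB1 libraries. All 6 of the 10 listed markers that could be tested were called higher, such as NEFL (9, 3 and 6 against 97, 130 and 103 counts) and LIN28B (11, 7 and 8 against 72, 60 and 106). Their summed level was 50.2 to 51.4 CPM in the Vector and 76.1 to 84.6 in the CB1 libraries, and CRABP1 had no count in any library. Their part in the HOX values was not tested, and in bulk RNA a change in few cells and a change in each cell cannot be told apart.

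Of the 96 members that start beside a coding gene without overlapping it, 6 rose and 13 fell. This was 19.8% called, against the background of 42.7% over all genes tested (20.8% higher and 21.9% lower). Of the 96, 7 reached the minimum only through the CB1 group and 7 only through the Vector group. The direction of these was partly fixed by the choice, so nothing is read from the 6 rises and 13 falls. The neighbour was called in the same direction for 7 of the 19 called members, in the opposite direction for 1 and was not called for 11. CEBPA-DT, picked with its values in view, had 2, 5 and 5 against 11, 18 and 21 counts (2.002 ± 0.515, adjusted p = 0.0054). It reached the minimum only through the CB1 group (0.105 FPKM in Vector and 0.428 in CB1), which partly fixed its direction. CEBPA, a transcription factor gene of differentiated cells, went from 2, 12 and 3 to 30, 32 and 21 (2.24 ± 0.49). MAN1B1-DT had 66, 43 and 64 against 124, 123 and 108 counts (1.02 ± 0.18, adjusted p = 4.1e-04), whereas MAN1B1, which starts within the same stretch of DNA and encodes a mannosidase of the early secretory pathway, was not called (0.07 ± 0.08). MAFG-DT, picked likewise, rose by 0.72 ± 0.16 while MAFG was not called (0.03 ± 0.07). Other called members of this kind were also read with values in view. AC006333.2 starts 1 base from WASL, a gene of actin nucleation, and both fell, by 0.57 and 0.62. ITPR1-DT fell with the calcium channel gene ITPR1 (by 1.29 and 0.82). AL133367.1 fell by 0.71 while the tRNA methyltransferase gene TRMT61A rose by 0.84, the 1 pair that split. STAM-AS1 and STAM both fell.

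Genes that remove antisense and upstream transcripts, or that recognise RNA duplexes, were read beside the members. Of 34 tested genes of the RNA exosome and of nuclear turnover, 9 rose and 14 fell (67.6% called), with a median log2 difference of -0.10. The background was 42.7% over all genes tested and 56.1% at a mean of 30 counts or more. Among subunits of the exosome core, EXOSC4 (0.92 ± 0.13), EXOSC5 (0.60 ± 0.11), EXOSC2 (0.58 ± 0.08), EXOSC6 (0.50) and EXOSC3 (0.37) rose, EXOSC8 fell by 0.34, and EXOSC1, EXOSC7 and EXOSC9 were not called. DIS3, on the same list, fell by 0.43 ± 0.10, and EXOSC10, C1D and MPHOSPH6 were not called. The genes of targeting and termination went both ways as well. ZCCHC8 (-0.51 ± 0.08), ZFC3H1 (-0.51 ± 0.11), the helicase gene MTREX (-0.40 ± 0.09) and the termination factor PCF11 (-0.68 ± 0.09) fell, whereas ZC3H18 (0.40), SRRT (0.43) and the Integrator endonuclease gene INTS11 (0.44) rose. Of 20 genes for sensing, editing and cleavage of double-stranded RNA, 8 rose and 4 fell (60% called, beside the same background), with a median of 0.12. OASL (1.28 ± 0.09) and OAS3 (0.86 ± 0.12) rose, DDX58, the RIG-I gene, fell by 0.99 ± 0.08, and the editing enzyme gene ADAR was not called.

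The libraries held 16957881 to 18833661 counts. CNR1 stood at 4 to 7 counts in Vector and 6465 to 7703 in the CB1 libraries, as the labels require. The mesenchymal markers VIM, AXL, CD44, CAV1, LGALS1 and MSN were all abundant. Of 7 luminal markers, ESR1 and PGR were at or near 0 FPKM, but KRT19 stood at 56.1 FPKM and rose by 0.61 on the log2 scale, and EPCAM stood at 5.27 FPKM and fell by 0.75. Of 5 fibroblast markers, DCN and LUM were at or near 0, while THY1 (1.23 FPKM) fell by 1.29 and COL1A1 (1.05 FPKM) rose by 0.34, with summed levels of 18.1 to 20.7 CPM in Vector and 15.5 to 16.2 in CB1. Of 5 leukocyte markers, CD3E was near 0 and the single one tested, CD14 (1.05 FPKM), rose by 1.59, with summed levels of 2.25 to 2.47 and 3.04 to 4.74 CPM. The part of these markers in the calls was not tested. Among the 345 members with a mean of at least 30 counts, 13 in CB1 replicate 1 lay over 2-fold from the mean of the other libraries of the group, against 4 in CB1 replicate 2, 2 in CB1 replicate 3, 2 in Vector replicate 2 and 0 in Vector replicates 1 and 3.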

How the data were processed

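Poly(A) RNA of 6 MDA-MB-231 libraries was sequenced with a kit that does not mark strand. The authors deposited 1 table per library with raw counts per gene and FPKM values. HISAT2 2.0.5 and featureCounts 1.5.0-p3 are named by the submitters as processing tools. The deposited FPKM values were proportional to the count over gene length within each library. Coordinates and strands matched GENCODE 29 (GRCh38) for all 58735 genes.

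The partner was the opposite-strand protein_coding gene with the largest overlap. A total of 19065 genes at a mean of 0.2 FPKM or more were tested on their counts with edgeR 4.0.16 (TMM, quasi-likelihood, Benjamini-Hochberg adjustment, 0.05) in R 4.3.3. Ratios of 3911 opposite-strand pairs, with 0.5 added to each count, were tested with limma 3.58.1. DESeq2 1.42.0 served as an alternative. Both fits were tested on simulated data. Totals of 16957881 to 18833661 counts put a member at the median at 10.2 counts per library. Intervals of count ratios cover counting error only.

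Named genes were up to 12 rises and 12 falls, ranked by size, among called members with a symbol, non-overlapping groups and at least 30 mean counts in the higher group, up to 4 clone-named genes each way, the 6 most abundant, up to 6 ratio changes each way and the listed RNAs. Exceptions, seen before they were picked, are marked. The members and lists were chosen with earlier results of these data known. Same-numbered replicates did not deviate together (correlations of -0.14, -0.09 and -0.03), so no pairing was used. No library was left out. Some genes of the lists are not reported here.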

Additional observations from a re-analysis of the deposited data

How the results depend on the processing

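Calls among the members numbered 153 to 274 (higher 84 to 157, lower 63 to 117) when 1 library was left out, against 237 (136 and 101 by direction) in all libraries. The lowest of these came without Vector replicate 2 and the highest without CB1 replicate 1. They numbered 166 with DESeq2 (100 higher, 66 lower) and 202 to 246 under the other 9 alternatives. Among these 9, a minimum of 0.5 FPKM left 896 members (202 called). A minimum of 0.2 FPKM in Vector left 1376 (213 called), where the rest tested all 1554. With library totals only, 118 were higher and 116 lower, so that rises and falls were about equal in number, and the median log2 difference of the members was 0.046 in place of 0.11. Ratio changes were 51 to 109 with 1 library left out, 154 with a pseudocount of 2, 133 with every overlapping partner and 105 with at least 10 counts in both genes. The coefficient between the changes of member and partner, 0.17, was 0.32 at 30 counts or more, 0.11 without exon overlap and 0.15 to 0.18 with 1 library left out. The cause of these differences was not tested. With the replicate number as a block, 224 members were called (125 higher, 99 lower) and ratio changes fell from 113 to 91, but same-numbered libraries did not deviate together.

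Of 51 named members that were called, 41 kept direction and call under all 16 alternatives, and no call changed direction. Genes that were not called changed sign as follows, on the log2 scale. With library totals only the values were -0.059 (FGD5-AS1), -0.032 (AL357033.4), -0.042 (HAGLR), -0.030 (VIM-AS1), -0.023 (FOXN3) and -0.033 (MAFG), and with no minimum -0.028 (FGD5-AS1), -0.0098 (HAGLR) and -9.3e-05 (MAFG). BDNF was at 0.011 with DESeq2 and with median-of-ratios factors, 0.010 with a minimum of 0.5 FPKM and 0.022 with a minimum in Vector, where GLIPR1 was at 0.010. AL357033.4 was at -0.0061 with limma on log2(FPKM + 0.1) and -0.012 with limma-voom. With 1 library left out they ranged from -0.22 to 0.020 (AFAP1), -0.11 to 0.27 (AL357033.4), -0.092 to 0.046 (BDNF), -0.45 to 0.18 (EGFR-AS1), -0.050 to 0.039 (FGD5-AS1), -0.039 to 0.18 (FOXN3), -0.36 to 0.21 (FOXP4-AS1), -0.057 to 0.023 (GLIPR1), -0.51 to 0.052 (GPRC5D-AS1), -0.074 to 0.10 (HAGLR), -0.13 to 0.046 (LOXL1), -0.023 to 0.061 (MAFG), -0.16 to 0.020 (NAPRT), -0.28 to 0.23 (PRKAR2A-AS1), -1.04 to 0.13 (SEMA3B-AS1) and -0.064 to 0.097 (VIM-AS1). At a median of 10.2 counts per library, small changes of a member were not detectable.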

Other observations

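Antisense genes below 0.2 FPKM also held differences. In a fit of all 34122 genes with a count, 2195 such genes were tested and 51 were called, 40 higher and 11 lower in the CB1 cells, where 26.4% of all genes in that fit were called. SLC16A1-AS1, beside the monocarboxylate transporter gene SLC16A1, had 3, 2 and 0 counts in the Vector and 23, 35 and 40 in the CB1 libraries. The ratio of the groups was 19.3, with a 95% exact interval for counting error of 8.01 to 60.8. HOTAIR, the HOXC-cluster RNA that has been linked with breast cancer metastasis, had 2, 2 and 3 against 11, 20 and 8 counts, a ratio of 5.49 (2.43 to 14.6). HOXA11-AS (1, 0 and 1 against 6, 13 and 4 counts, ratio 11.3, 2.80 to 99.2) and HOXA-AS3 (1, 0 and 0 against 4, 7 and 9, ratio 19.7, 3.15 to 817) were higher as well, as was EMX2OS (0, 1 and 2 against 9, 18 and 5). VIPR1-AS1 (25, 32 and 24 against 5, 10 and 11 counts) and MBNL1-AS1 (23, 24 and 37 against 12, 7 and 17), opposite the splicing regulator gene MBNL1, were lower. The embryonic kidney markers that were higher in the CB1 libraries moved in the same direction as the HOX-cluster RNAs named so far in this paragraph, and their part was not tested. HOTTIP, HOXA-AS2, HOXA10-AS and HOXB-AS1, also below the minimum, were not among the 51 called, and HAGLR, above the minimum, was not called. The called genes were named after their values were seen.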
